A study of Homo sapiens with 6 samples.

Results

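Placental growth factor (PGF), the 3 vascular endothelial growth factors VEGFA, VEGFB and VEGFC, the receptor tyrosine kinases FLT1, KDR and FLT4 and the co-receptors NRP1 and NRP2 were examined in SKBR3 cells that overexpressed CTTN. The 9 genes were taken by name, and all 9 were found among the 54644 gene rows of the deposited table, each in a row of its own. SKBR3 is a HER2-positive breast adenocarcinoma line, and CTTN encodes cortactin, an actin-binding protein. Both groups were stable lines made with a lentivirus and selected with puromycin: the control cells carried the pLVX vector and the CTTN cells carried pLVX-CTTN, with 3 libraries each. Polyadenylated RNA was sequenced, and the table held 34887069 to 41279829 fragments a library. The sources used here do not give whether each line was a pool or a clone. Since the design has 1 vector line and 1 CTTN line, p-values measure the spread between cultures or libraries of these lines.

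The VEGF family controls the growth of blood and lymph vessels. VEGFA acts mainly through KDR, PGF and VEGFB bind FLT1, and VEGFC binds FLT4, while the neuropilins NRP1 and NRP2 present several of these ligands and also bind class 3 semaphorins. Tumour cells are a known source of the ligands, whereas the kinase receptors are found mostly on endothelial cells.

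CTTN itself checks the labels. Its level, in fragments scaled to transcript length and library depth (FPKM), was 104, 108 and 108 in control replicates 1 to 3 and 263, 329 and 180 in CTTN replicates 1 to 3. Every CTTN library lay above every control library, and the log2 fold change (CTTN minus control) was 1.35 ± 0.22 (SE, n = 3 per group) with an edgeR adjusted p of 0.0249. The edgeR adjusted p ran from 0.000191 to 0.154 when 1 library was left out, and the call was lost without CTTN replicate 1 or any one of the controls. It was also lost with limma on log2(FPKM + 0.1) (adjusted p 0.0658).

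The CTTN libraries did not resemble one another as closely as the controls did, and this bears on every difference below. The standard deviation, over genes, of a library's log2 deviation from its group mean was 0.32 and 0.34 in CTTN replicates 2 and 3, against 0.15 to 0.17 in the other 4 libraries. These 2 libraries lay apart along transcript length. Against the other 2 CTTN libraries, the 2887 genes with the shortest transcripts had a median log2 deviation of −0.48 in CTTN replicate 2 and 0.50 in CTTN replicate 3, and the 2887 with the longest had 0.47 and −0.45. Against the controls, CTTN replicate 2 showed almost no such trend (Spearman's rho across genes 0.0026), while CTTN replicates 1 and 3 did (−0.51 and −0.61). The controls also differed from one another along length, with rho values of −0.295, 0.063 and 0.251 in control replicates 1 to 3. Genes are not independent replicates, so these rho values are descriptions. The median log2 fold change between the groups ran from 0.34 among the 2887 shortest genes to −0.30 among the 2887 longest. The difference of each tested member is therefore also given with a smooth length trend of each library removed, an analysis chosen after seeing the data. That fit called 2658 of 14433 genes tested, against 606 without this step, so a pass in it is to be read beside that count.

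Of the 9 members, 5 had enough fragments to be tested, namely PGF, VEGFA, VEGFB, VEGFC and NRP1. At an adjusted p under 0.05 in edgeR's quasi-likelihood test, PGF rose and NRP1 fell. Across all 14433 genes tested, 2.29% were called higher and 1.91% lower, or 4.2% in either direction. Both changes were at least 1.5-fold, which was so for 3.2% of the genes tested, called at the same threshold. At an unadjusted p under 0.05 stood 4 of the 5 tested members and 30.2% of all genes, which is a description and not a test. The counts given for the lists below are to be read beside these shares. The other 3 tested members did not pass, and 4 members, FLT1, KDR, FLT4 and NRP2, had too few fragments for a test.

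PGF, a ligand of FLT1, had an FPKM of 1.47, 1.60 and 1.41 in control replicates 1 to 3. The CTTN libraries held 2.81, 2.57 and 4.81. All CTTN libraries were above all controls, as was so for 18.2% of the genes tested, and CTTN replicate 3 was the highest by far. The gene lies on chromosome 14 from 74941834 to 74955784 in the files' GRCh38 coordinates. The log2 fold change was 1.13 ± 0.21 (95% interval 0.62 to 1.63), a 2.18-fold rise, with an edgeR adjusted p of 0.037. The values rest on 85 to 107 fragments per control library and 160 to 231 per CTTN library. Without CTTN replicate 3 the log2 fold change was 0.87 (edgeR adjusted p 0.00886), and with the length trend removed it was 0.97 (edgeR adjusted p 0.00607). The call was lost when CTTN replicate 1 or any one of the controls was left out; over all 6 omissions the edgeR adjusted p ran from 0.00252 to 0.179 and the log2 fold change from 0.87 to 1.25. It was also lost with limma on log2(FPKM + 0.1) and log2(FPKM + 1) (adjusted p 0.12 and 0.142).

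A pair of reading frames carried most of the PGF signal, and they differ by a stretch of 63 bases that encodes a basic, heparin-binding segment of the protein. The longer transcript, ENST00000555567, has 170 codons and the shorter, ENST00000553716, has 149. The stretch is shown because it is the part of the coding sequence that tells these forms apart; it comes from the GENCODE reference transcripts, matched by transcript identifier, with the inserted bases in capitals and 12 shared bases on each side.
PGF insert: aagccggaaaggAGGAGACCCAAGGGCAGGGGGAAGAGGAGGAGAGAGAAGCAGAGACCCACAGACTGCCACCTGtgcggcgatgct
Isoform levels are estimates divided among overlapping transcripts. The shorter form had an FPKM of 1.10, 0.84 and 0.83 in the controls and 1.76, 1.58 and 3.70 in the CTTN libraries. The longer form, summed over its 4 listed isoforms, had 0.36, 0.76 and 0.39 in the controls and 0.9975, 0.96 and 0.81 in the CTTN libraries. Neither set of levels overlapped between the groups, and each gave the smallest p that 3 against 3 libraries allow (exact two-sided permutation test, p = 0.1). The share of the shorter form was 67.0% ± 8.7 (SD, n = 3) in the CTTN libraries and 62.2% ± 11.5 in the controls, a difference of 4.8 percentage points that was smaller than the spread between libraries (exact permutation p = 0.5). Among the members, 66 such shares could be tested, and none can reach 0.05 in this design. Of these shares, 7 (10.6%) had the smallest exact permutation p, as did 11 of the levels of the same transcripts. A p of 0.1 arises at a rate of up to 0.1 where the groups do not differ, and the 10.6% is near that rate.

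The RefSeq promoter table gives PGF a pair of transcription starts 167 bases apart on the minus strand, while the deposited isoform table has 5 start groups for the gene. The window around the upstream start, chr14:74955715-74956014 in RefSeq GRCh38.p14, is shown because PGF is the ligand that rose. Capitals mark matches on either strand to GGGCGG, the Sp1 core, and to TGCNCNC. The latter is looser than TGCRCNC (R is A or G), the core of the metal response element bound by MTF1.
PGF promoter: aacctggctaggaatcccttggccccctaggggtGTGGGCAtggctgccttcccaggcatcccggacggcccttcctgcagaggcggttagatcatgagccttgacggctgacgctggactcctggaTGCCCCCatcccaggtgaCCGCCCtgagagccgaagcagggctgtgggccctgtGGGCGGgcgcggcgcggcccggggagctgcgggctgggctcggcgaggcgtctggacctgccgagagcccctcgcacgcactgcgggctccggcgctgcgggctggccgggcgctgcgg
GGGCGG occurred 2 times, and 45.0% of the 35116 promoter windows in the reference hold it. TGCNCNC also occurred 2 times and is found in 55.9% of the windows. In both of these matches the base at R is C, so neither matches the stricter core TGCRCNC. Neither ACGTG, the hypoxia response core (21.4% of windows), nor CTTTGA, a TCF/LEF core (12.9%), was in this window. The downstream window overlaps it and had 4 matches to GGGCGG and none to the other motifs. A match to letters this short is a description of the sequence and not a binding site. MTF1 had a mean FPKM of 2.69 ± 1.22 (SD, n = 3) in the CTTN libraries and 3.36 ± 0.25 in the controls, with a log2 fold change of −0.29 (edgeR adjusted p 0.433). SP1 had 14.1 ± 5.5 FPKM in the CTTN libraries and 20.1 ± 1.7 in the controls, with a log2 fold change of −0.49 (edgeR adjusted p 0.17).

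VEGFA, the central angiogenic ligand, had an FPKM of 47.6, 43.0 and 46.9 in the controls and 35.8, 43.5 and 30.7 in the CTTN libraries. CTTN replicate 2 lay within the control range and the other CTTN libraries lay below it. The log2 fold change was −0.34 ± 0.12 (95% interval −0.61 to −0.06), which did not pass in edgeR (adjusted p 0.123). It passed without CTTN replicate 2 (−0.45, edgeR adjusted p 0.00522) and with the length trend removed (−0.24, edgeR adjusted p 0.0436). Those fits called 6953 of 14733 and 2658 of 14433 genes tested, so these passes are not particular to VEGFA. VEGFA lies on chromosome 6 from 43770184 to 43786487.

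The most abundant coding isoform of VEGFA, ENST00000372067, and a shorter one, ENST00000372064, differ by 132 bases that encode a segment known to bind heparin and neuropilins. The stretch is printed because it links the ligand to NRP1, the co-receptor that fell; capitals mark the bases present in the longer frame of 371 codons and absent from that of 327 codons.
VEGFA insert: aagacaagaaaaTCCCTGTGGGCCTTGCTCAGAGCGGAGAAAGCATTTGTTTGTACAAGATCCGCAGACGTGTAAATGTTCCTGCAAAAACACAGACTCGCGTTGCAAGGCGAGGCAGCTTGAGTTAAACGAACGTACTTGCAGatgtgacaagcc
The longer form took 32.7% ± 3.8 (SD, n = 3) of the VEGFA signal in the controls and 31.4% ± 2.7 in the CTTN libraries (exact permutation p = 0.5). That difference of −1.33 percentage points turned to 3.57 when the start-site groups that hold the form were compared in place of the form. The form without the stretch took 8.44%, 7.89% and 8.42% in the controls and 16.3%, 5.0% and 24.1% in the CTTN libraries. That share was even among the controls and scattered on both sides of them in the CTTN libraries, with CTTN replicate 2 the lowest and CTTN replicate 3 the highest (exact permutation p = 0.4).

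VEGFB, a ligand of FLT1 linked to lipid handling, was the most abundant member in the controls, at 57.3, 53.8 and 53.1 FPKM. In the CTTN libraries it was 66.5, 49.96 and 96.7 FPKM, on both sides of the controls. The log2 fold change was 0.30 ± 0.19 (95% interval −0.14 to 0.74) and did not pass in edgeR (adjusted p 0.291). VEGFB is among the 2887 shortest genes, with a mean isoform length of 1057 bases, and these had a median log2 fold change of 0.34. With the length trend removed the sign turned, to −0.04 (edgeR adjusted p 0.656). Without CTTN replicate 2 the value was 0.46 (edgeR adjusted p 0.0197), in a fit that called 6953 of 14733 genes tested. Without CTTN replicate 3 the value was 0.06 (edgeR adjusted p 0.742). Its reading frames of 207 and 188 codons, which differ at their carboxyl end, took 49.0% and 21.4% of the signal in the controls and 43.6% and 21.5% in the CTTN libraries. A retained-intron transcript made up the rest, with 29.6% in the controls and 34.8% in the CTTN libraries. The shares of the longer frame and of the retained-intron transcript gave the smallest possible p (each exact permutation p = 0.1). They are among the 7 of all 66 shares tested that did so, which is near the rate where the groups do not differ. Those of the retained intron nearly touched, at up to 30.5% in the controls and from 30.7% in the CTTN libraries, and without CTTN replicate 3 its difference fell from 5.25 to 2.45 percentage points.

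VEGFC, the ligand of FLT4 best known for lymphatic growth, was at 2.09, 1.77 and 2.09 FPKM in the controls and 1.49, 1.35 and 1.26 in the CTTN libraries. The groups did not overlap, which was so for 14.2% of all tested genes in this direction. The log2 fold change was −0.50 ± 0.14 (95% interval −0.84 to −0.17) and did not pass in edgeR (adjusted p 0.089). It passed with the length trend removed (−0.59, edgeR adjusted p 0.0241) and without CTTN replicate 2 (−0.50, edgeR adjusted p 0.0334). Those fits called 2658 of 14433 and 6953 of 14733 genes tested, so these passes are not particular to VEGFC. These values rest on 87 to 163 fragments a library.

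NRP1, the co-receptor for VEGFA and for semaphorins, was the one receptor expressed at more than trace level. Its FPKM was 8.35, 8.05 and 9.34 in the controls and 4.72, 4.76 and 3.56 in the CTTN libraries, with no overlap. The log2 fold change was −0.96 ± 0.13 (95% interval −1.27 to −0.65), and the control level was 1.95-fold that of the CTTN cells (edgeR adjusted p 0.0149). NRP1 is on chromosome 10 from 33177492 to 33336262, and 506 to 1489 fragments a library were assigned to it. It belongs to the 2887 longest genes, which had a median log2 fold change of −0.30. With the length trend removed, NRP1 was still lower, at −0.75 (edgeR adjusted p 0.000213). Without CTTN replicate 3 the log2 fold change was −0.84 (edgeR adjusted p 0.00149). The call was lost when CTTN replicate 1 or any one of the controls was left out, and over the 6 omissions the edgeR adjusted p ran from 0.000648 to 0.105, with log2 fold changes from −1.097 to −0.84. With limma on log2(FPKM + 0.1) NRP1 passed (adjusted p 0.0496), and with a pseudocount of 1 it did not (limma adjusted p 0.0549).

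Within NRP1, the transcripts with the full reading frame of 923 codons (ENST00000374867 and ENST00000265371) had a summed FPKM of 4.13, 3.84 and 3.74 in the controls and 1.73, 2.92 and 1.22 in the CTTN libraries. These did not overlap (exact permutation p = 0.1, the smallest possible), and the same held for other NRP1 transcripts. Taken singly, 4 of the 13 tested were lower without overlap (ENST00000374867, ENST00000374875, ENST00000374821 and ENST00000432372), and 1, ENST00000395995, was higher at a level near 0 in every library. Among the 66 transcripts tested over all members, 8 were lower without overlap, these 4 included. At gene level 14.2% of all genes tested were. A share over all transcripts is not given here, so the 4 of 13 is a description. ENST00000374875, with 735 codons, had an FPKM of 1.15, 1.21 and 1.67 in the controls and 0.84, 0.39 and 0.95 in the CTTN libraries. The summed share of the pair with 923 codons was 45.8% ± 5.0 (SD, n = 3) in the controls and 44.1% ± 15.0 in the CTTN libraries (exact permutation p = 0.9). A shorter frame of 644 codons took 12.3% ± 5.8 in the controls and 18.7% ± 7.3 in the CTTN libraries (exact permutation p = 0.3). The pair did not move together. The share of ENST00000265371 was 0.19%, 1.21% and 1.40% in the controls and 1.53%, 3.62% and 34.1% in the CTTN libraries (exact permutation p = 0.1), and that of ENST00000374867 was 49.3%, 46.5% and 38.7% in the controls and 35.2%, 57.7% and 0.10% in the CTTN libraries (exact permutation p = 0.6). In CTTN replicate 3 the signal of the frame was thus assigned almost wholly to ENST00000265371.

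The kinase receptors were close to the limit of detection. FLT1 had 0, 1 and 0 fragments in the controls and 1 in each CTTN library. KDR, the main receptor of VEGFA, had 7, 5 and 3 in the controls and 4, 4 and 0 in the CTTN libraries, where a count of 0 allows up to 3 fragments. FLT4 had 2, 1 and 4 in the controls and 4, 1 and 1 in the CTTN libraries. The second neuropilin, NRP2, had 14, 12 and 5 fragments in the controls and 8, 3 and 7 in the CTTN libraries. In all 4 the ranges of FPKM overlapped between the groups, and a difference was not detectable at this depth. The cells thus held ligand transcripts with hardly any transcript of the kinase receptors.

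In the order of levels in the control cells, VEGFB (54.7 FPKM) stood above VEGFA (45.9), NRP1 (8.58), VEGFC (1.98) and PGF (1.49), and the control ranges of these neighbours did not overlap. NRP2 (0.15), FLT4 (0.06), KDR (0.04) and FLT1 (0.004) followed; NRP2 and FLT4 overlapped, as did FLT4 and KDR. PGF and VEGFC changed places between the groups. PGF was below VEGFC in each control library and above it in each CTTN library.

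Class 3 semaphorins share the neuropilins with the VEGF ligands, and plexins are their signalling partners. All 12 genes of this list were tested, and 2 fell, SEMA3A and SEMA3B, which were also the 2 at an unadjusted p under 0.05; over all genes 1.91% were called lower. SEMA3A, the classical ligand of NRP1, had 26, 31 and 30 fragments in the controls and 4, 4 and 1 in the CTTN libraries, with a log2 fold change of −3.15 ± 0.39 (edgeR adjusted p 0.0106). Its CTTN counts lie near the floor of 3 fragments, so it entered the test through its control counts alone. The size of its fall is therefore not precise, and the count of 2 includes this gene. SEMA3B, listed in a row shared with MIR6872, went from 20.6 ± 0.9 FPKM (SD, n = 3) in the controls to 14.6 ± 3.5 in the CTTN libraries, a log2 fold change of −0.64 ± 0.11 (edgeR adjusted p 0.0267). Both calls were lost without CTTN replicate 1 or any one of the controls, with edgeR adjusted p up to 0.0838 for SEMA3A and 0.15 for SEMA3B. With limma and pseudocounts of 0.1 and 1 neither passed: SEMA3A had log2 fold changes of −2.27 and −0.54 (limma adjusted p 0.0795 and 0.126) and SEMA3B had adjusted p of 0.197 and 0.198. The other 10 did not pass, among them the most abundant, SEMA3F (log2 fold change 0.09) and PLXND1 (−0.11). The median log2 fold change of the list was −0.21, against 0.01 over all genes tested.

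The related platelet-derived growth factors and VEGFD formed a list of 8 genes, of which 6 were tested and 0 passed in edgeR, with 1 at an unadjusted p under 0.05 and a median log2 fold change of −0.04. PDGFB had 40.8 ± 1.1 FPKM (SD, n = 3) in the controls and 39.9 ± 0.7 in the CTTN cells, and the row that joins PDGFRA with FIP1L1, whose reads cannot be assigned to either, had 36.2 ± 2.3 and 37.3 ± 3.0. VEGFD had 0 to 8 fragments a library. Of 8 genes that process VEGFC, 6 were tested and 0 passed in edgeR, with 2 at an unadjusted p under 0.05 and a median log2 fold change of 0.08. CCBE1, the cofactor of VEGFC cleavage, had 0 fragments in every library. ADAMTS3, the protease that cleaves VEGFC, had 0.68 ± 0.15 FPKM (SD, n = 3) in the controls and 1.46 ± 0.48 in the CTTN cells, and its log2 fold change of 0.57 did not pass in edgeR (adjusted p 0.0766). That fit is on fragments, which were 65 to 71 a library in the controls and 83 to 112 in the CTTN cells, and the FPKM means of ADAMTS3 differ by more than the fragments do. The most abundant rows of this list were the one that joins CTSD with IFITM10 (log2 fold change 0.12) and PCSK7 (−0.27).

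Downstream of the receptors, 42 of 45 signalling genes were tested and 0 passed in edgeR, with 13 at an unadjusted p under 0.05, where 30.2% of all genes stood. The median log2 fold change was 0.03, and 6 of the rows are joined with other genes. The small heat shock protein HSPB1, the most abundant, had 1458 ± 110 FPKM (SD, n = 3) in the controls and 2686 ± 1155 in the CTTN libraries (log2 fold change 0.80, edgeR adjusted p 0.1). RAC1, a regulator of actin, had 465 ± 17 and 451 ± 32 FPKM.

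Hypoxia is the best known control of VEGFA, and 19 of 20 genes of that list were tested. ANGPTL4, a secreted inhibitor of lipoprotein lipase that is induced by hypoxia and by PPAR factors, was the one gene that passed, and 7 had an unadjusted p under 0.05, where 30.2% of all genes stood. ANGPTL4 had 0.82 ± 0.15 FPKM (SD, n = 3) in the controls and 3.76 ± 1.46 in the CTTN libraries, a log2 fold change of 2.17 ± 0.28 (edgeR adjusted p 0.0124). Without CTTN replicate 1 or any one of the controls the call was lost (edgeR adjusted p up to 0.0986), as it was with limma (adjusted p 0.0579 and 0.0844 with pseudocounts of 0.1 and 1; log2 fold change 1.34 with the latter). The glycolytic enzyme LDHA (log2 fold change 0.24) and PGK1 (0.02, in a row joined with ATP7A) were the most abundant and did not pass. CA9, a sensitive hypoxia gene, was too low to be tested. The list's median log2 fold change was −0.14.

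Of 24 other angiogenic ligands and inhibitors, 15 were tested and 1 passed, with 4 at an unadjusted p under 0.05. EPHB4, an ephrin receptor of veins that epithelial tumours also express, rose from 36.7 ± 0.6 FPKM (SD, n = 3) to 47.7 ± 3.8, a log2 fold change of 0.34 ± 0.07 (edgeR adjusted p 0.0489). This call was lost on leaving out CTTN replicate 1 or any one of the controls (edgeR adjusted p up to 0.246). It was also lost with no further scaling (edgeR adjusted p 0.0813), with no low-count filter (edgeR adjusted p 0.0898) and with limma (adjusted p 0.125 and 0.122 with pseudocounts of 0.1 and 1), and with the length trend removed the log2 fold change was 0.57 (edgeR adjusted p 0.00709). CCN1, with 36.7 ± 1.3 and 34.0 ± 2.5 FPKM, was next in abundance and did not pass (log2 fold change −0.08). ANGPT2, FGF2, THBS2 and TIE1 had 0 fragments in every library. The list's median log2 fold change was −0.09.

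**Figure D1:**
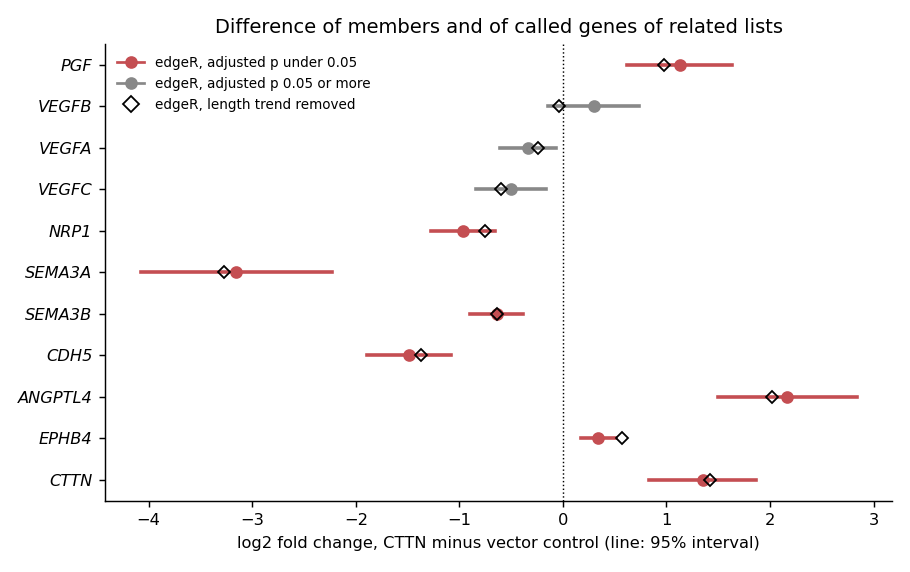
Log2 fold change (CTTN minus vector control) of the 5 tested members, of the called genes of the related lists and of CTTN, as edgeR estimates with 95% intervals (n = 3 per group), red where the adjusted p was under 0.05; open diamonds give the estimate with the length trend removed. The diamond of VEGFB lies at −0.04, whereas PGF and NRP1 keep their sides of 0.

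Markers of endothelial cells, which normally carry the kinase receptors, were read as a list. Of its 10 genes, 4 were tested, 3 had an unadjusted p under 0.05 and 1, CDH5, fell at the adjusted threshold, where over all genes the shares were 30.2% and, called lower, 1.91%; the median log2 fold change of the 4 was −1.09. CDH5, or VE-cadherin, had 4.15 ± 0.26 FPKM (SD, n = 3) in the controls and 1.68 ± 0.31 in the CTTN libraries, a log2 fold change of −1.49 ± 0.17 (edgeR adjusted p 0.00845). Leaving out CTTN replicate 1 or any one of the controls ended the call (edgeR adjusted p up to 0.0821), and the log2 fold change stayed between −1.71 and −1.35. With limma on log2(FPKM + 1) it was −0.95 and passed (adjusted p 0.0329). ESAM was the most abundant, at 7.98 ± 0.16 FPKM in the controls and 7.98 ± 2.11 in the CTTN cells, and did not pass (log2 fold change −0.08). ERG, an endothelial transcription factor, had 0.25 ± 0.14 FPKM (SD, n = 3) in the controls and 0.07 ± 0.02 in the CTTN libraries, with no overlap. Its log2 fold change of −1.48 did not pass in edgeR (adjusted p 0.0748). These values rest on 21, 51 and 24 fragments in the controls and 10, 13 and 8 in the CTTN libraries. ERG thus entered the test through its control counts, and the counts and median of the list include it. VWF, von Willebrand factor, was at 0.15 and 0.12 FPKM, with a log2 fold change of −0.70 (edgeR adjusted p 0.154). CLDN5, EMCN, ROBO4 and TIE1 had 0 fragments in every library, and PECAM1 was at 0.01 FPKM in both groups. The summed level of the list was 12.2, 13.2 and 12.2 FPKM in the controls and 9.17, 8.48 and 11.9 in the CTTN libraries. All libraries came from cultures of the SKBR3 line, so the list is not a measure of the number of endothelial cells. In bulk RNA, fewer cells that express a gene and less of its RNA per cell cannot be told apart.

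Other markers stood as follows. Among 8 luminal and HER2 markers, 7 were tested and 0 passed in edgeR, with 2 at an unadjusted p under 0.05; KRT19 and KRT8 were the most abundant, ERBB2 had 1675 ± 31 FPKM (SD, n = 3) in the controls and 1739 ± 82 in the CTTN cells, and CDH1 was at 0.13 and 0.10. KRT19 had a log2 fold change of 0.49 and KRT8 one of −0.02, and the median of the 7 was 0.08. The summed level of this list was 6977, 6763 and 6808 FPKM in the controls and 7710, 6260 and 9470 in the CTTN libraries. Of 7 fibroblast and pericyte markers, 2 were tested and 0 passed in edgeR, with 0 at an unadjusted p under 0.05. COL1A1 and RGS5 were the most abundant of these, with log2 fold changes of −0.16 and −0.05, and the summed level was 5.63, 5.51 and 6.80 FPKM in the controls and 5.76, 6.53 and 5.15 in the CTTN libraries. Of 5 leukocyte markers, 2 were tested and 0 passed in edgeR, with 0 at an unadjusted p under 0.05. The row of CD68 is joined with EIF4A1 and SENP3 and makes up nearly all of that list's sum, which was 606, 632 and 608 FPKM in the controls and 752, 620 and 856 in the CTTN libraries. That joined row, whose reads cannot be assigned to CD68, had a log2 fold change of 0.24. CD14, next in abundance, had 0.57 (edgeR adjusted p 0.227), while PTPRC was at 0.02 and 0.09 FPKM.

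The 5 genes whose log2 level followed PGF most closely over the 6 libraries, among 11746 compared, were FBXO2, P2RX6 in a row joined with THAP7-AS1, DUSP22, DUSP14 and VPS37D. Their Pearson r with PGF was 0.997, 0.997, 0.996, 0.996 and 0.995. All 5 were lowest in the controls and highest in CTTN replicate 3, and 682 genes had an r above 0.95, so many genes share this order of libraries. FBXO2 alone of the 5 was called (log2 fold change 1.74, edgeR adjusted p 0.0347), and it too lost the call without CTTN replicate 1 or any one of the controls (edgeR adjusted p up to 0.181) and with limma (adjusted p 0.111 and 0.144 with pseudocounts of 0.1 and 1; log2 fold change 0.92 with the latter).

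The genes beside PGF, VEGFA and NRP1 were also read from the fit. Within 200 kb of PGF, 10 other genes were tested and 0 passed in edgeR, with a lowest adjusted p of 0.137 and 4 at an unadjusted p under 0.05. Of 10 genes near VEGFA, 0 passed in edgeR (lowest adjusted p 0.124), with 3 at an unadjusted p under 0.05. ITGB1, the 1 tested neighbour of NRP1, did not pass either (log2 fold change −0.27, edgeR adjusted p 0.336).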

How the data were processed

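Polyadenylated RNA of 3 vector and 3 CTTN libraries of SKBR3 cells was sequenced with a stranded kit. Per the labels, the authors used bcl2fastq 2.20.0, Trimmomatic, STAR and Cufflinks on GRCh38; the study's methods name Cutadapt and an older build, but the loci in the files are those of GRCh38. The deposited estimated counts are gene counts divided by a size factor of each library: 100.0% of values up to 5000 fragments came out as whole fragments within 0.05. The deposited FPKM values are scaled to transcript length and library depth by the authors' software. The authors' sample table names the 3 control columns, whereas the labels name columns shifted by 1; all 3 were used as controls, and which control sample each is was not resolved. Estimated counts were rounded and tested with edgeR 4.0.16 (quasi-likelihood, TMM, low-count filter, adjusted over all 14433 genes tested, threshold 0.05) in R 4.3.3. Alternatives used DESeq2 1.42.0, limma 3.58.1 (pseudocounts 0.1 and 1, mean FPKM at least 0.1), no scaling, no filter, the replicate number as a block, the omission of each library and, added after seeing the data, recovered whole fragments and an offset removing each library's trend with length, which also removes any difference between the groups that follows length. Length is the FPKM-weighted mean of a gene's isoforms. Isoform shares were compared with exact two-sided permutation tests (SciPy 1.17.1), for which 0.1 is the smallest p. Scripts were tested on simulated data. Reading frames come from the GENCODE transcripts matched by identifier; 6 of the 9 members had a promoter in the RefSeq table. Named genes are the members, CTTN, up to 8 called genes and the 2 most abundant of each list, the 5 most like PGF (mean FPKM at least 1) and called neighbours. Outside these rules, ERBB2, MTF1, SP1, CA9, ADAMTS3, CCBE1, VEGFD, ITGB1, ERG, VWF, and genes at or near 0 were named after their values were seen. The members and lists were chosen with earlier results of these data known. 1 gene of the leukocyte list is not reported here.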

Additional observations from a re-analysis of the deposited data

How the results depend on the processing

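edgeR called 606 genes (331 higher and 275 lower in CTTN cells) and 2 members. DESeq2 called 1900 genes (973 higher, 927 lower) and the same number of members. limma called 115 genes (70 higher, 45 lower) and 1 member with a pseudocount of 0.1, and 94 genes (54 higher, 40 lower) and 0 members with a pseudocount of 1, where 4 members had an unadjusted p under 0.05. Using only the control columns that the labels name left 29 genes (16 higher, 13 lower) and 0 members, with 3 at an unadjusted p under 0.05; this is the same fit as leaving out control replicate 1. With the length trend removed, an alternative added after seeing the data, edgeR called 2658 genes (1418 higher, 1240 lower) and 4 members, and VEGFB turned to a log2 fold change of −0.042. Leaving out 1 library gave 15 to 6953 genes (10 to 3394 higher, 5 to 3559 lower) and 0 to 5 members. The highest counts came without CTTN replicate 2; leaving out CTTN replicate 3 gave 1244 genes, CTTN replicate 1 gave 18, and control replicates 1, 2 and 3 gave 29, 15 and 30. The cause was not tested for any of these. No scaling (547 genes), no filter (593) and recovered fragments (643, also added after seeing the data) gave 2 members each.

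In the numbering of the authors' sample table, the replicate numbers do not pair the libraries: the deviations of same-numbered libraries had correlations of 0.03, 0.08 and −0.19. In the labels' numbering, shifted by 1, the correlations were −0.02 for CTTN replicate 1 and 0.20 for CTTN replicate 2. There CTTN replicate 3 has no partner column. Which numbering holds was not resolved. With the replicate number as a block, edgeR called 109 genes (54 higher, 55 lower) and 0 members, with 4 at an unadjusted p under 0.05.

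For the 12 genes followed through 168 combinations of gene and alternative, with that repeated fit counted once, 101 kept direction and side of the threshold, 61 kept direction and lost the call, 5 gained a call and 1, VEGFB, turned. The share of the shorter PGF form differed by −0.19 to 11.2 percentage points when 1 library was left out. Of 56 alternatives for the other 7 isoform shares, 55 moved by less than 1 SD; the other was that of VEGFA ENST00000372067, from −1.33 to 3.57 points with start-site groups. Depth limits FLT1, KDR, FLT4 and NRP2, which had at most 14 fragments a library.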
